A study of Mus musculus with 49 samples.

Results

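How the hippocampal transcriptome changed from birth to the third postnatal week was compared between endophilin A mutants and wild types, in 34 of the 49 sequenced mouse samples. The members were all libraries of 4 groups: the endophilin A1 and A2 knockouts (DKO, n = 7) and wild types (WT-DKO, n = 10) labelled postnatal day 13 to 21, and the endophilin A1, A2 and A3 knockouts (TKO, n = 9) and wild types (WT-TKO, n = 8) labelled postnatal day 0. For each gene the log2 change from day 0 to day 13 to 21 was taken in the mutants (DKO over TKO) and in the wild types (WT-DKO over WT-TKO), and the first minus the second, called the difference below, was tested. A value above 0 means that the gene rose more, or fell less, in the mutants. Older and newborn mutants differ in genotype. By their labels the older ones carry Sh3gl3, the gene of endophilin A3, and the newborn ones do not, so age and the loss of A3 cannot be told apart in the mutant change. The remaining 15 samples, littermate controls of the mutants at day 13 to 21 (KOWT, n = 7) and at day 0 (KOWTKO, n = 8), served as a second set of controls. All samples also carry a growth note of newborn mice, against which the age field was preferred for KOWT, DKO and WT-DKO. The exact day of single samples and the strain of the lines were not known. Nor was it stated that each sample is 1 animal, so the tests here rest on a spread among samples that may be partly technical.

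Endophilins A are membrane-bending proteins that bind dynamin and synaptojanin and act in clathrin-mediated and other routes of endocytosis, best known at the nerve terminal where synaptic vesicles are recovered. They also act on surface receptors, whose uptake shapes signalling through the MAP kinase ERK, a kinase that induces immediate early genes and, in feedback, its own inhibitors. In the mouse hippocampus the weeks after birth are a time in which neurons are still added to the dentate gyrus, synapses form and fire, astrocytes mature and myelin appears.

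Markers of age went with the labels. Dcx, a microtubule-associated protein of immature neurons, ran from 1630 to 2350 counts per M (mega) reads, CPM, in WT-TKO and from 71.4 to 109 in WT-DKO, and from 2020 to 2840 in TKO and 81.7 to 168 in DKO. Slc17a7, the vesicular glutamate transporter of hippocampal pyramidal and granule cells, ran from 1240 to 2290 CPM in the older libraries of both genotypes. WT-TKO replicate 8 departed from its group. It had a mean log2 CPM of 4.77 over 20 myelin genes, against 1.01 to 1.45 in the other 7 WT-TKO libraries and 6.42 to 7.95 in WT-DKO. For 15 genes with at least 20 CPM in WT-DKO and at most 1% of that level in the rest of WT-TKO, it held a median 10.4% of the WT-DKO level, where the others held 0.161% to 0.423%. Some counts below are therefore also given without it, and counts given only once may move too. DKO replicates 5 and 6 stood at 6.71 and 6.53 CPM of Sh3gl3, against 56.1 to 70.4 in the other DKO libraries, and so by level do not match a genotype with intact Sh3gl3. The same pair was the lowest of DKO on the myelin genes (5.93 and 6.08, against 6.91 to 7.47 in mean log2 CPM) and the highest on 20 immature neuron genes (6.83 and 6.69, against 6.08 to 6.54). They are kept under their label, and some counts are also given without them. KOWT replicates 4, 5 and 6 were low in the same way, at 12.8 to 15.7 CPM. Depth over the 4 groups was 13.1 M to 57.0 M gene-assigned reads per library.

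Sh3gl1 and Sh3gl2 were low in both mutant groups as labelled, Sh3gl2 was low in the littermates too, and Sh3gl3 departed from the label in the pair of DKO libraries named above. Sh3gl1, the gene of endophilin A2, had a median of 66.3 CPM in WT-TKO, 58.6 in WT-DKO, 0.778 in TKO and 0.699 in DKO. Sh3gl2, the gene of endophilin A1, rose in the wild types from a median of 197 CPM (158 to 227) at day 0 to 440 (390 to 464), a log2 change of 1.17. Its remaining reads rose in the mutants by about as much, from 21.6 CPM to 39.9, a log2 change of 1.10, and the difference was −0.07 ± 0.18 (SE; adjusted p = 0.867, edgeR's quasi-likelihood test). The littermate libraries were as low in Sh3gl2 as the mutants, at 19.1 CPM in KOWTKO and 39.6 in KOWT, so by level they are not wild type for this gene. Sh3gl3 differed by design, with a median of 0.235 CPM in TKO and 61.7 in DKO, where it ran from 6.53 to 70.4.

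Most genes changed with age in both genotypes. Of 16521 genes tested, 13406 (81.1%) changed with age in the wild types and 13291 (80.4%) in the mutants, at an adjusted p under 0.05, which is what "called" means throughout. Across genes, which are not independent replicates, the log2 changes of mutants and wild types had a Pearson r of 0.935. Among 5463 genes whose mean change over both genotypes was at least 1 on the log2 scale, the mutant change was smaller in 38.3%, and the median ratio of mutant to wild-type change was 1.06. Genes that rose had a median ratio of 1.09 and genes that fell 1.01. Without WT-TKO replicate 8 these became 43.4%, 1.03, 1.04 and 1.01.

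The change itself differed between genotypes in 1516 genes (9.18% of those tested). It was higher in the mutants in 822 (4.98%) and lower in 694 (4.2%), and by at least 2-fold in 340 (2.06%). The shares of 4.98% higher and 4.2% lower are the background for the calls of this difference in every gene list below. Without WT-TKO replicate 8 there were 1672 calls, 856 higher and 816 lower, and 1393 of them, or 91.9% of the original calls, were shared.

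**Figure D1:**
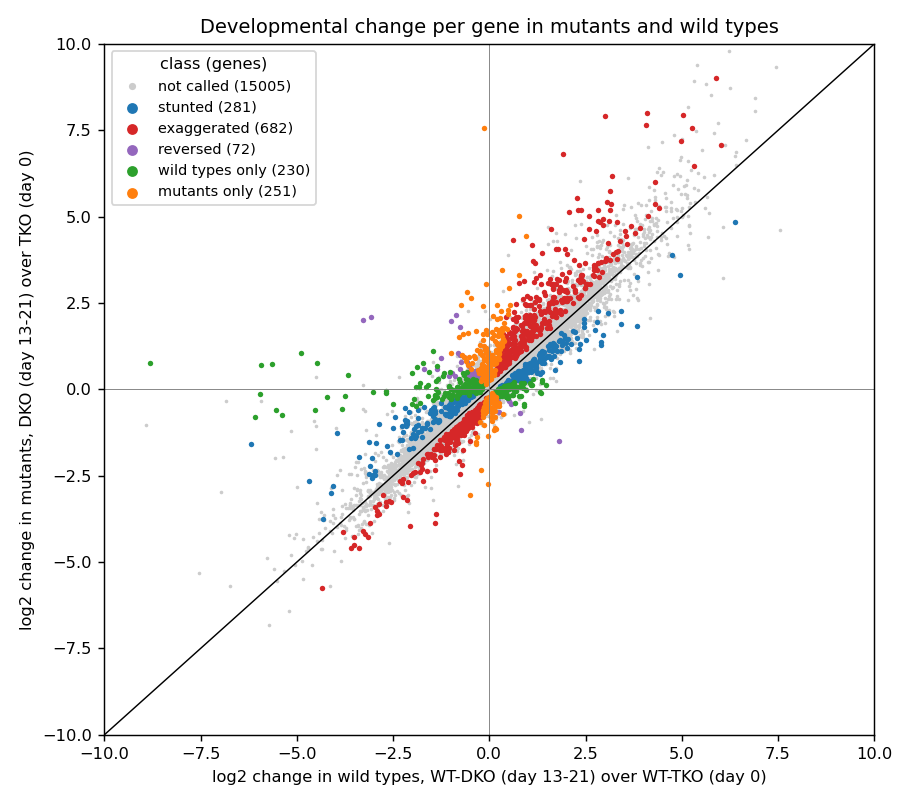
Log2 change from day 0 to day 13 to 21 of each gene in wild types (x axis, WT-DKO over WT-TKO) and mutants (y axis, DKO over TKO), with the genes called for a difference coloured by class and the line of equal change in black; 1 gene lies outside the plotted range of ±10. Most genes lie along the line (Pearson r of 0.935 over 16521 genes), and the 682 exaggerated genes flank it on its steeper side.

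Sorted by what the wild types did, the altered genes were more often exaggerated than stunted. Exaggerated genes, which changed in the same direction in both genotypes and more in the mutants, numbered 682 (4.13% of genes tested). The 364 of them that rose in wild types had a median log2 change of 1.16 there and 2.09 in the mutants, and the 318 that fell had −0.65 and −1.06. Stunted genes, with a smaller change of the same direction in the mutants, numbered 281 (1.7%), 158 rises with medians of 1.16 and 0.73 and 123 falls with medians of −1.44 and −0.74. In 230 genes (1.39%) the change was called in wild types only, in 251 (1.52%) in mutants only, and in 72 (0.436%) the 2 changes had opposite signs. The balance between exaggerated and stunted genes leaned on WT-TKO replicate 8, without which they numbered 659 and 403. Without that library, 210 of the 230 genes, 226 of the 251 and 64 of the 72 kept their class.

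The difference can equally be read as a mutant effect that differs with age. Of the 1516 genes, 654 (43.1%) differed between mutants and wild types only at day 13 to 21, 614 (40.5%) only at day 0, 160 at both ages and 88 at neither taken alone. Over all genes the mutant effect was called in 22.2% at day 13 to 21 and in 23.8% at day 0, whether or not at the other age. Among the 160, the sign was opposite at the 2 ages in 133. Choosing genes by a called difference favours opposite signs, so this count carries no weight of its own. Stunted genes differed at the older age only in 54.4%, and exaggerated genes at birth only in 49.6%.

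The gene with the smallest p of the difference was Cybrd1, a ferric reductase of the plasma membrane. It stood at 37.2 to 43.4 CPM in WT-TKO (median 39.6) and 9.38 to 12.3 in WT-DKO (10.2). In the mutants it stood at 15.5 to 23.3 in TKO (21.3) and 15.1 to 29.0 in DKO (19.8). The mutants were thus lower at birth and higher in the third week, with no overlap at either age. The wild types fell by 1.91 on the log2 scale, the mutants changed by 0.06 (adjusted p = 0.551), and the difference was 1.97 ± 0.13 (adjusted p = 3.9e-13).

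Several genes of ERK signalling that rose with age in wild types rose less or not at all in the mutants. A list of 17 ERK feedback genes, drawn up after the values were seen and so without weight of its own, held 11 called lower and 0 higher. Its median log2 change was 0.61 in wild types and 0.00 in mutants, and the median of its members' differences was −0.44. The gap lay mainly at the older age, where 12 of the 17 were lower in DKO than in WT-DKO and 0 higher, against a background of 10.7% lower; at birth 5 were higher in TKO and 1 lower, against 11.5% and 12.3%. Without DKO replicates 5 and 6 the list had 8 called lower, and with the mean of the meningeal genes described below as a covariate also 8. Both settings were chosen with the data known.

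Etv5, a transcription factor induced by ERK, ran from 31.7 to 42.2 CPM in WT-TKO (median 34.7), 38.3 to 46.9 in TKO (42.6), 46.8 to 76.3 in WT-DKO (64.5) and 34.9 to 60.6 in DKO (43.7). Its wild-type rise of 0.86 was 0.08 in the mutants, a difference of −0.78 ± 0.12 (adjusted p = 6.01e-05). Spry2, Spry4 and the Spred proteins restrain receptor-driven activation of ERK. Spry4 ran from 16.9 to 24.3 CPM in WT-DKO (21.4) and from 7.39 to 18.9 in DKO (10.7), while WT-TKO (14) and TKO (13.3) overlapped, for a difference of −0.79 ± 0.17 (adjusted p = 0.00303). Spred3 fell in the mutants by 0.33 where it rose by 0.21 in the wild types. Its medians were 55.4 CPM in WT-TKO, 59.0 in TKO, 64.2 in WT-DKO and 46.9 in DKO, and the highest of 7 DKO libraries (54.0) lay below the lowest WT-DKO library (54.9). Its exons overlap those of Ggn, and the kit does not mark strand.

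Ccnd1, cyclin D1, which carries growth factor signals into the cell cycle, was reversed. It ran from 41.0 to 49.9 CPM in WT-TKO (44.5), 34.4 to 48.4 in TKO (41.3), 41.5 to 63.2 in WT-DKO (53.5) and 18 to 33.5 in DKO (26.9). The newborn groups overlapped and the older groups did not. The difference was −0.90 ± 0.13 (adjusted p = 3.91e-05). Against the littermates it was −0.12 (adjusted p = 0.695), with KOWT at a median of 38.8 CPM and KOWTKO at 53.4.

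Immediate early genes are induced by neuronal firing through calcium, CREB and ERK. Of 31 activity-regulated genes tested, 7 were called lower, 2 higher, and the list's median difference was −0.31, beside 0.00645 over all genes; the backgrounds are 4.2% and 4.98%. Its median log2 change with age was 1.90 in wild types and 0.82 in mutants. At day 13 to 21, 20 of the 31 were lower in DKO than in WT-DKO and 2 higher, on backgrounds of 10.7% and 11.5%. At birth 4 were lower in TKO than in WT-TKO and 3 higher, on backgrounds of 12.3% and 11.5%. Without WT-TKO replicate 8, 9 members were lower, and without that library and DKO replicates 5 and 6 together 4 were.

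The transcription factor Egr1 ran from 21.4 to 52.4 CPM in WT-TKO (median 24.4), with replicate 8 the highest, and from 25.9 to 57.6 in TKO (42.2). It reached 112 to 180 in WT-DKO (138) and 42.8 to 104 in DKO (57.7), so the older groups did not overlap. Its rise of 2.33 in wild types was 0.82 in mutants, a difference of −1.51 ± 0.26 (adjusted p = 0.00036), or −1.69 without WT-TKO replicate 8. The nuclear receptor Nr4a1 rose from a median of 10.8 to 59.3 CPM in wild types and from 11.8 to 26.1 in mutants, a difference of −1.08 ± 0.20 (adjusted p = 0.000652); 1 of 7 DKO libraries, at 51.7, reached into the range of WT-DKO (47.3 to 85.6). Homer1, a postsynaptic scaffold whose short form is induced by activity, went from 81.9 to 154 CPM in wild types and from 89.2 to 119 in mutants, with a difference of −0.52 ± 0.10 (adjusted p = 0.000742).

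Fos, a component of the AP-1 transcription factor, ran from 1.96 to 6.37 CPM in WT-TKO (5.20), 3.04 to 15.7 in TKO (5.27), 6.74 to 17.2 in WT-DKO (11.4) and 2.10 to 11 in DKO (5.43), for a difference of −1.45 ± 0.42 (adjusted p = 0.026). The call was lost without DKO replicates 5 and 6 (−1.24, adjusted p = 0.0642). It was also lost without that pair and WT-TKO replicate 8 together, and with no filter on low counts. With the meningeal covariate the difference was −2.26 (adjusted p = 0.00939). Arc, which drives the uptake of AMPA receptors and whose protein binds endophilin A, had a difference of −0.97 ± 0.43 that was not called (adjusted p = 0.155). Its WT-TKO range of 2.33 to 10.5 CPM had replicate 8 at the top, and without that library the difference was −1.23 (adjusted p = 0.0474). Its older levels were 70.5 to 140 CPM in WT-DKO (115) and 13.2 to 95.8 in DKO (38.7). Bdnf, a neurotrophin released with activity, was not called, at −0.21 ± 0.12 (adjusted p = 0.311). It was lower in the mutants at both ages, by a log2 effect of −0.29 at birth and −0.49 later.

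The promoters of 3 activity-regulated genes that were called lower are shown because the cAMP response element, through which CREB acts, has the core TGACG, which on the other strand reads CGTCA. Capitals mark this core, the only motif searched, on both strands of RefSeq promoters of 300 bases. These run from 250 before to 50 after the start of transcription. Fos lies on the plus strand at chr12:85473640-85473939, Nr4a1 on the plus strand at chr15:101266596-101266895 and Homer1 on the plus strand at chr13:93303507-93303806, all of GRCm38.p6. Each reads 5′ to 3′.
Fos: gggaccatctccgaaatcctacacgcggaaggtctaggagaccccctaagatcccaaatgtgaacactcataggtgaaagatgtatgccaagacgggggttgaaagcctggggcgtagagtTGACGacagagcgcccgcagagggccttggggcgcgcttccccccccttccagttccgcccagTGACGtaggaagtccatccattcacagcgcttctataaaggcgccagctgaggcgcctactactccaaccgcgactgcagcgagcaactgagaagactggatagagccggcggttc
Nr4a1: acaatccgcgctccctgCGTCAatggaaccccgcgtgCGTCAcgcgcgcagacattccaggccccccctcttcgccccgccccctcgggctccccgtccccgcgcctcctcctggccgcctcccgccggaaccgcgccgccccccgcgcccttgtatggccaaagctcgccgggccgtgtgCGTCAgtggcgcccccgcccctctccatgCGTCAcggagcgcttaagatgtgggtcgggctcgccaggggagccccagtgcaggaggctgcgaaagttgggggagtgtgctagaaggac
Homer1: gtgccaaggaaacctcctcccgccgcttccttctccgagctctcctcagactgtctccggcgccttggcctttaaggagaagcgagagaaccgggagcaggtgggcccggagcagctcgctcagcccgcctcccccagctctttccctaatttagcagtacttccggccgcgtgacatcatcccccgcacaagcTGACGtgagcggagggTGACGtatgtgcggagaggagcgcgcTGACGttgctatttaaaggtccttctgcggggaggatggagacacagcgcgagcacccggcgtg
Homer1 has a second promoter in the table, and the one shown was taken because it holds the core. The core occurs in 20.8% of 32851 promoters of this length and in 21 of the 35 promoters of activity-regulated genes. Counted by gene, where several promoters give several chances, 23.0% of 27025 genes hold it in at least 1 promoter, as do 18 of the 23 activity-regulated genes with an entry and 4 of the 5 with an entry among the 7 called lower. Fos and Nr4a1 are known targets of CREB. A match is a description of letters, not of binding.

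**Figure D2:**
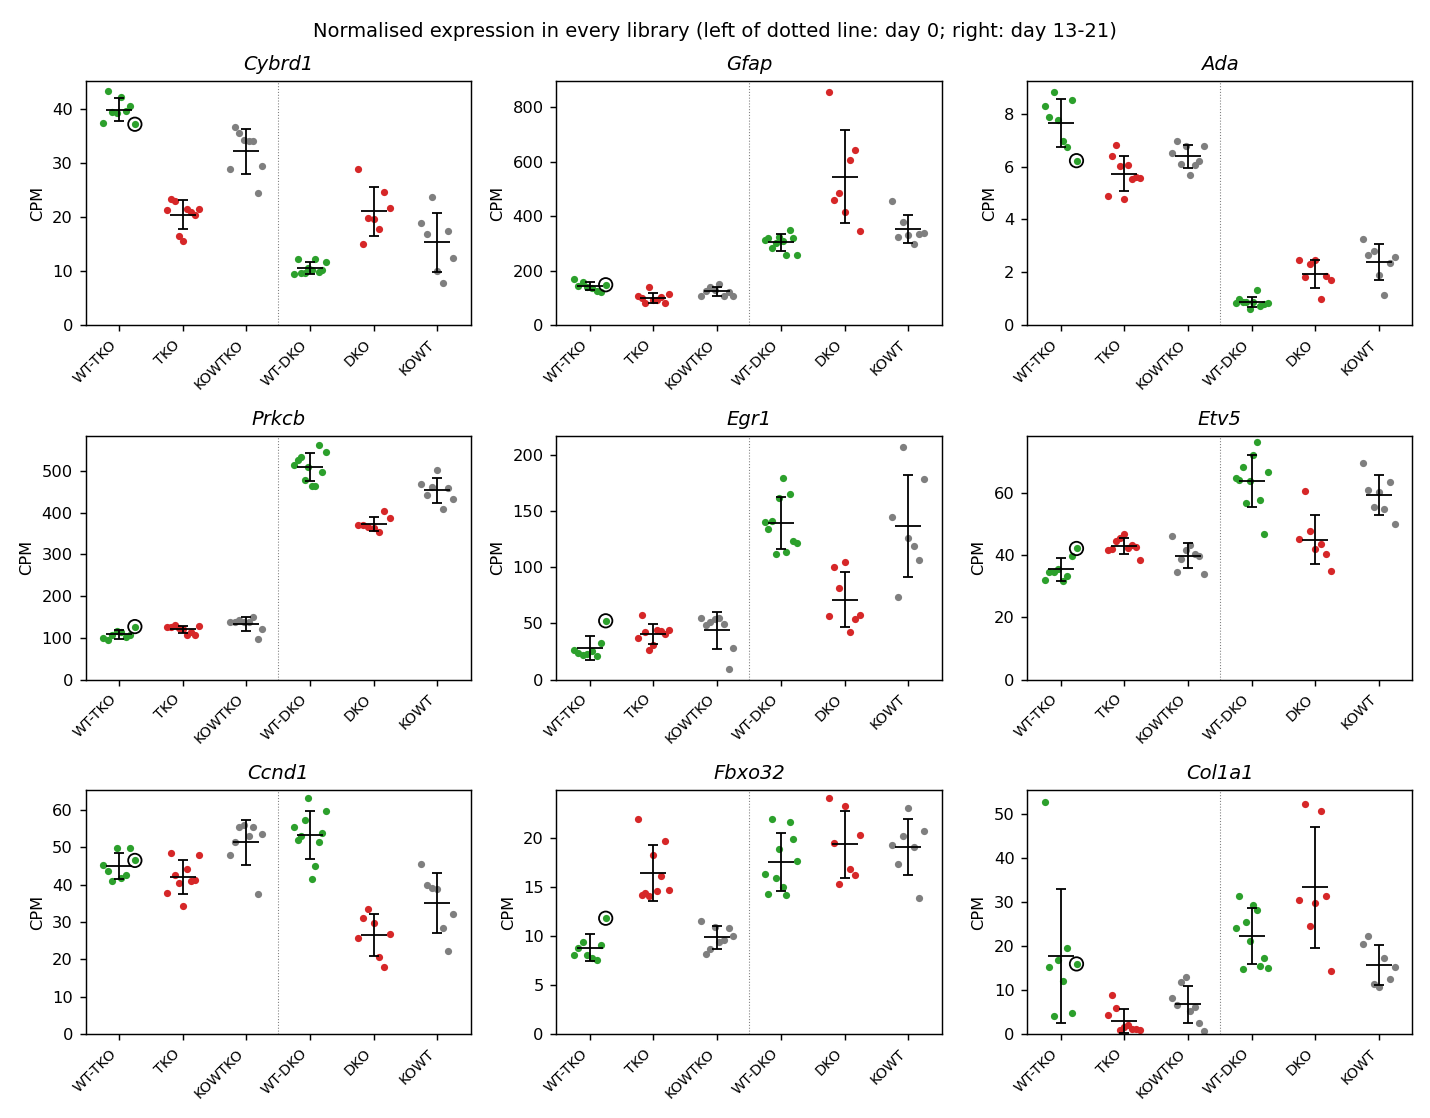
CPM of 9 genes in every library (points), with the mean and SD of each group (bars); green is wild types, red mutants, grey littermates, newborn groups left of the dotted line and older groups right of it, and the black ring marks WT-TKO replicate 8. Cybrd1 is lower in the mutants at birth and higher later, Prkcb, Egr1, Etv5 and Ccnd1 are lower in DKO than in WT-DKO, and Ada and Ccnd1 in the older littermates lie nearer to DKO than to WT-DKO.

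The stunted rises with the smallest p were 3 genes of signalling and membrane traffic. Prkcb, a calcium-dependent protein kinase C, ran from 95.5 to 127 CPM in WT-TKO (107), 106 to 130 in TKO (124), 463 to 562 in WT-DKO (512) and 354 to 405 in DKO (371). The older groups did not overlap, and the rise of 2.24 in wild types was 1.65 in mutants, a difference of −0.59 ± 0.08 (adjusted p = 6.39e-06). Homer2, a scaffold of metabotropic glutamate receptors, rose from a median of 56.7 to 138 CPM in wild types and from 70.7 to 100 in mutants (difference −0.76 ± 0.10, adjusted p = 1.29e-05). Asap1, an activator of Arf GTP hydrolysis in membrane traffic, rose from 65.4 to 157 and from 75.5 to 107 (difference −0.77 ± 0.10, adjusted p = 5.8e-06). In all 3 genes the mutants started higher at birth and ended lower. How near Homer2 or any other named gene lies to the targeted genes was not examined.

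Among 21 glutamate receptor genes 4 were called higher and 2 lower, and the list's median difference was 0.13. The 2 that were lower were the group II metabotropic receptors, which dampen transmitter release and are also made by glia in the case of Grm3. Grm3 ran from 26.6 to 36.8 CPM in WT-TKO (32.6), 26.7 to 33.9 in TKO (30.2), 38.7 to 51.3 in WT-DKO (44.3) and 18.6 to 33.5 in DKO (23.6). It was thus reversed, with a difference of −0.75 ± 0.12 (adjusted p = 7.89e-05), and only the older groups stood apart. Grm2 rose from 27.3 to 73.6 CPM in wild types and from 23.8 to 45.1 in mutants (difference −0.71 ± 0.19, adjusted p = 0.0151). The kainate receptor subunit Grik1 went the other way, falling from a median of 27.4 to 20 CPM in wild types and rising from 18.8 to 21.7 in mutants (difference 0.70 ± 0.13, adjusted p = 0.000816). The NMDA receptor subunits Grin2a and Grin2b, of which Grin2a joins late in development, had differences of −0.33 ± 0.21 and −0.23 ± 0.38 that were not called (adjusted p = 0.34 and 0.762).

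Of 26 synaptic vesicle and release genes 3 were called higher and 1 lower, with a median of 0.05. Without WT-TKO replicate 8 there were 3 lower, without DKO replicate 1 there were 2, and with the meningeal covariate the list had 0 calls. The 2 with the smallest p, Syn2 and Slc17a7, were lower in the mutants at birth and were not called apart later. Syn2, synapsin II, a phosphoprotein that holds vesicles in reserve, went from 202 to 1040 CPM in wild types and from 160 to 1090 in mutants (difference 0.37 ± 0.10, adjusted p = 0.0114), and it shares exon positions with Timp4. Slc17a7 went from 159 to 1740 and from 118 to 1850 (difference 0.67 ± 0.18, adjusted p = 0.0128), and its highest WT-TKO value, 303, was replicate 8. Both calls were lost with the meningeal covariate, under which the differences were 0.28 for Syn2 (adjusted p = 0.218) and 0.49 for Slc17a7 (adjusted p = 0.268). Without WT-TKO replicate 8 and DKO replicates 5 and 6 together they were 0.30 (adjusted p = 0.0553) and 0.44 (adjusted p = 0.043). The chloride transporters whose balance sets the sign of GABA responses were not called: Slc12a2 had a difference of 0.06 ± 0.21 (adjusted p = 0.89) and Slc12a5 of 0.39 ± 0.14 (adjusted p = 0.0806). Of 28 endocytosis genes, 2 were higher, Sh3gl3 among them, and 1 lower, which is 10.7% of the list against 9.18% of all genes. Leaving out single libraries gave 1 to 4 higher, the 4 without DKO replicate 7, and 1 or 2 lower.

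Some signalling genes rose in the mutants alone or against the wild-type trend. Pnck, a calcium/calmodulin-dependent kinase, moved from a median of 120 to 105 CPM in wild types and from 97.0 to 148 in mutants (difference 0.85 ± 0.13, adjusted p = 4.86e-05). Adcy5, an adenylyl cyclase, moved from 127 to 134 and from 101 to 144 (difference 0.45 ± 0.07, adjusted p = 3.91e-05). Npr1, the guanylyl cyclase receptor of natriuretic peptides, whose exons overlap Gm16048, moved from 3.65 to 3.84 and from 2.33 to 5.98 (difference 1.33 ± 0.19, adjusted p = 3.91e-05). All 3 were lower in TKO than in WT-TKO at birth, and Pnck and Npr1 were also higher in DKO than in WT-DKO.

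Genes that mark hippocampal subfields split. Of 16, 4 were called lower and 2 higher, and the median difference was −0.04. With the meningeal covariate 1 was lower and 0 higher. Iyd, an iodotyrosine deiodinase, ran from 0.331 to 1.15 CPM in WT-TKO (0.597), 0.328 to 0.760 in TKO (0.498), 5.25 to 11.2 in WT-DKO (8.62) and 1.12 to 3.56 in DKO (1.61). Its rise of 3.85 in wild types was 1.84 in mutants, a difference of −2.01 ± 0.31 (adjusted p = 7.89e-05). Calb2, calretinin, a calcium-binding protein of interneurons, mossy cells and young granule cells, fell from 94.7 to 71.3 CPM in wild types and rose from 90.5 to 117 in mutants (difference 0.67 ± 0.12, adjusted p = 0.000519; 0.46 and not called with the meningeal covariate, adjusted p = 0.0812). Tdo2, tryptophan dioxygenase, expressed in granule cells, rose from 1.01 to 10.7 and from 1.41 to 6.2 (difference −1.15 ± 0.23, adjusted p = 0.00124). In RNA of whole tissue, fewer cells of a type and less RNA per cell cannot be told apart.

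Several astrocyte genes rose more in the mutants. Of 19 reactive astrocyte genes 6 were higher and 1, Emp1, lower, with a median difference of 0.49. Not all of these 6 rose more. Vim fell in both genotypes and less in the mutants, with log2 changes of −2.96 in wild types and −2.47 in mutants. Serping1 fell in wild types, with a change of −0.39, and its mutant change of 0.24 was not called. Of 16 astrocyte maturation genes 5 were higher and 0 lower, with a median of 0.04. Gfap, the intermediate filament of astrocytes, ran from 122 to 171 CPM in WT-TKO (142), 81.7 to 141 in TKO (98.8), 256 to 350 in WT-DKO (311) and 347 to 856 in DKO (486). All but the lowest DKO library exceeded every WT-DKO library. Its rise of 1.09 in wild types was 2.45 in mutants, a difference of 1.35 ± 0.17 (adjusted p = 5.31e-06), and 1.34 with the meningeal covariate (adjusted p = 0.00151).

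Aspg, an asparaginase that reactive astrocytes induce, was low in all newborn libraries, with medians of 0.408 CPM in WT-TKO and 0.131 in TKO. It rose to 1.23 to 3.26 in WT-DKO (2.37) and 2.80 to 9.54 in DKO (5.73), for a difference of 2.82 ± 0.44 (adjusted p = 7.55e-05), or 1.83 with the meningeal covariate (adjusted p = 0.0497). Agt, angiotensinogen, which brain astrocytes make, ran from 22 to 37.8 CPM in WT-DKO (30.4) and 59.8 to 133 in DKO (95.3). Its difference of 1.90 ± 0.40 (adjusted p = 0.00282) fell to 1.45 without WT-TKO replicate 8, which at 18.1 CPM lay far above the others of its group. Gja1, connexin 43, the main gap junction protein of astrocytes, differed at birth only, at 81.5 CPM in WT-TKO and 51.5 in TKO against 283 and 287 later (difference 0.74 ± 0.17, adjusted p = 0.0048). The calls of Agt and Gja1 were lost with the meningeal covariate, at differences of 1.05 (adjusted p = 0.276) and 0.63 (adjusted p = 0.122), under which the maturation list had 0 calls and the reactive list 2 higher and 1 lower.

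Some glucocorticoid-responsive genes rose more in the mutants. Of 19 tested, 5 were higher and 0 lower, with a median difference of 0.34, and 3 were higher and 1 lower without DKO replicates 5 and 6; at day 13 to 21, 12 were higher in DKO than in WT-DKO, against a background of 11.5%. Sgk1, a kinase induced by corticosteroids that acts on ion channels, ran from 35.0 to 54.2 CPM in WT-TKO (41.4), 37.7 to 52.9 in TKO (44.7), 59.2 to 89.5 in WT-DKO (65.9) and 89.0 to 227 in DKO (152). The difference was 1.08 ± 0.16 (adjusted p = 6.78e-05). Plin4, a lipid droplet coat protein whose exons overlap Hdgfl2, reached 0.546 to 1.71 CPM in WT-DKO and 0.769 to 8.62 in DKO. Its older ranges thus overlapped, and its difference was 3.05 ± 0.54 (adjusted p = 0.000467). In KOWT it reached 1.30 to 10.1 CPM, and its difference lay between littermates and wild types, as given below. Whether Plin4 lies near a targeted gene was not examined.

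Metabolic and secreted proteins were among the genes that fell in wild types and fell less, or not, in mutants. Angptl4, an inhibitor of lipoprotein lipase, fell from a median of 11.1 to 2.71 CPM in wild types and stood at 5.21 in TKO and 7.44 in DKO (difference 2.5 ± 0.36, adjusted p = 4.86e-05). Ada, adenosine deaminase, fell from 7.83 to 0.847 in wild types and from 5.59 to 1.85 in mutants (difference 1.60 ± 0.18, adjusted p = 7.31e-07). BC024139, whose function is not stated here, fell from 22.8 to 2.86 and from 13.9 to 4.21 (difference 1.40 ± 0.24, adjusted p = 0.000267). Ypel1, of the yippee-like family, differed at the older age alone, at 29.1 to 40.7 CPM in WT-DKO and 43.0 to 72.9 in DKO, with a difference of 0.62 ± 0.11 (adjusted p = 0.000527); its exons overlap Ppil2.

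Hapln3, which links hyaluronan to proteoglycans, and Eya2, a phosphatase and transcriptional coactivator, were reversed to a rise. Hapln3 went from a median of 2.46 to 1.37 CPM in wild types and from 1.58 to 1.92 in mutants (difference 1.43 ± 0.22, adjusted p = 6.98e-05). Eya2 went from 6.34 to 3.54 and from 4.40 to 5.94 (difference 1.27 ± 0.20, adjusted p = 7.36e-05; 0.84 with the meningeal covariate, adjusted p = 0.0373). Parp3, an ADP-ribosyltransferase of DNA repair whose exons overlap Rrp9, rose from 1.28 to 3.65 and from 0.666 to 6.06 (difference 1.64 ± 0.20, adjusted p = 3.24e-06). These 3 were lower in the mutants at birth and higher in the third week, as Cybrd1 was.

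Proliferation genes fell in both genotypes, and some fell further in the mutants. Of 20 cell cycle and DNA replication genes 5 were called lower and 0 higher, with a median difference of −0.33 on median changes of −2.91 in wild types and −3.19 in mutants. Top2a, the topoisomerase that untangles chromosomes at division, had overlapping newborn levels, with medians of 77.3 CPM in WT-TKO and 79.6 in TKO. It ended at 5.12 to 9 in WT-DKO (6.06) and 1.91 to 6.01 in DKO (2.76), a difference of −1.02 ± 0.22 (adjusted p = 0.00319). Rrm2, a subunit of ribonucleotide reductase, ended at 4.12 in WT-DKO and 3.27 in DKO (difference −0.61 ± 0.17, adjusted p = 0.0206), and was −0.64 and not called with the meningeal covariate (adjusted p = 0.103). The list's count depended on single libraries. It was 2 without DKO replicate 1, 3 or 4 or WT-DKO replicate 5, and 3 without WT-DKO replicate 8 or TKO replicate 2 or 3. It was 2 with the meningeal covariate and 8 without DKO replicates 5 and 6. Of 20 immature neuron genes edgeR called 0, with 3 at an unadjusted p under 0.05, 1 by DESeq2 and 0 by limma-voom, or 1 lower in 6 of the 34 fits that leave out a library, and Dcx differed by 0.07 ± 0.15 (adjusted p = 0.819).

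Among the other exaggerated falls, Pou3f3, a POU factor of the developing forebrain, fell from 132 to 79.1 CPM in wild types and from 167 to 57.6 in mutants (difference −0.72 ± 0.11, adjusted p = 6.98e-05). Ier5, an immediate early response gene, fell from 75 to 41.6 and from 89.0 to 29.1 (difference −0.65 ± 0.10, adjusted p = 4.98e-05). Aif1l, an actin-binding protein whose exons overlap Gm13442, fell from 34.3 to 7.53 and from 41.9 to 4.89 (difference −0.89 ± 0.13, adjusted p = 4.86e-05). Each was higher in TKO than in WT-TKO by its fitted value and lower in DKO than in WT-DKO, although for Aif1l the newborn step was not called (adjusted p = 0.0558). Zfp239, a zinc finger protein, differed at birth only: it ran from 19.4 to 23.5 CPM in WT-TKO and from 34.6 to 46.1 in TKO, where the older medians were 42.7 and 42.0 (difference −0.95 ± 0.10, adjusted p = 1.18e-07).

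FoxO factors, which insulin and growth factor signalling keep out of the nucleus, and their targets were examined as a group. Of 27 tested, 8 were higher in TKO than in WT-TKO and 2 lower, on backgrounds of 11.5% and 12.3%, while 5 were higher and 1 lower at day 13 to 21, on backgrounds of 11.5% and 10.7%. The difference was called lower in 4 and higher in 0, on backgrounds of 4.2% and 4.98%, with a median of −0.11; without DKO replicate 7 it was lower in 7, and without DKO replicate 2 higher in 1. Foxo3 ran from 55.1 to 65.1 CPM in WT-TKO (57.0), 63.4 to 81.3 in TKO (71.4), 63.6 to 82.9 in WT-DKO (69.3) and 62.9 to 70.9 in DKO (68.6), so that TKO at birth was already at the older level. Its difference was −0.38 ± 0.07 (adjusted p = 0.00073). Fbxo32, the muscle atrophy ubiquitin ligase atrogin-1, ran from 7.56 to 11.8 in WT-TKO (8.42), with replicate 8 highest, and from 14.1 to 21.9 in TKO (14.7), with no overlap. Its older medians were 17.0 in WT-DKO and 19.5 in DKO, and the difference was −0.77 ± 0.16 (adjusted p = 0.00217). With the meningeal covariate it was −0.64 and not called (adjusted p = 0.0862), and the list then had 1 call.

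Genes of the membranes around the brain also moved with this contrast. Of 14 meningeal and fibroblast genes 11 were called higher, with a median difference of 2.14. Col1a1, a fibrillar collagen, ran from 4.17 to 52.9 CPM in WT-TKO (15.6), 0.850 to 8.81 in TKO (1.61), 14.8 to 31.5 in WT-DKO (22.6) and 14.4 to 52.5 in DKO (30.6). The difference of 3.10 ± 0.60 (adjusted p = 0.0014) thus lay mostly at birth. Col6a1, another collagen, rose from 8.55 to 54.5 CPM in wild types and from 2.92 to 133 in mutants (difference 2.45 ± 0.44, adjusted p = 0.000752). The list's mean log2 CPM ran from 1.82 to 4.22 in WT-TKO, 0.69 to 2.40 in TKO, 3.59 to 4.73 in WT-DKO and 4.31 to 5.26 in DKO, and its summed level from 111 to 525 CPM, 67.8 to 180, 251 to 591 and 511 to 908. Itih2, a serum protein that binds hyaluronan, was exaggerated as well, at medians of 0.801 CPM in WT-TKO, 0.0890 in TKO, 4.12 in WT-DKO and 9.34 in DKO (difference 4.90 ± 0.70, adjusted p = 4.64e-05).

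With the mean of this list as a covariate, chosen after the data were seen, 451 genes were called in place of 1516, 252 higher and 199 lower, and 386 of them, 25.5% of the original calls, were shared. The classes shrank to 182 exaggerated, 46 stunted, 4 reversed, 109 in wild types only and 95 in mutants only. The covariate moves with group and age, as the ranges above show. It brought the difference of Itih2 to 2.18 (adjusted p = 0.0175), and those of Col1a1 and Col6a1, members of the list, to 0.79 (adjusted p = 0.286) and 0.75 (adjusted p = 0.241). Of the 45 named genes with a called difference, 35 kept it, among them Cybrd1, Gfap, Egr1, Nr4a1, Prkcb, Homer2, Asap1, Ccnd1 and Grm3. How far tissue carried along at dissection has a part in the difference was not tested.

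Haemoglobin genes went the other way. Of 7 blood cell genes 4 were lower and 1 higher, with a median difference of −1.46. With the meningeal covariate 2 were lower and 0 higher. In the 34 fits that leave out a library 3 to 5 were lower, and 0 were higher in 6 of these fits. Hbb-bs ran from 47.3 to 117 CPM in WT-DKO (61.1) and 7.16 to 49.5 in DKO (23.4), with WT-TKO at 32.2 and TKO at 38.6 (difference −1.38 ± 0.34, adjusted p = 0.00975; −1.33 and not called with the meningeal covariate, adjusted p = 0.105). Hbb-bt had older medians of 12.4 and 2.06 CPM and newborn ones of 8.46 and 7.21 (difference −2.02 ± 0.46, adjusted p = 0.00499). Both are near-identical copies, so how their reads were divided is uncertain. Choroid plexus genes varied between older libraries more than between groups, from a list mean of 0.24 to 6.23 in WT-DKO and 1.05 to 5.50 in DKO, and edgeR called 0 of 14, with 0 at an unadjusted p under 0.05, 0 by DESeq2 and 0 by limma-voom. The list's median difference was 1.12, and without WT-DKO replicate 9 alone 6 of the 14 were called higher.

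**Figure D3:**
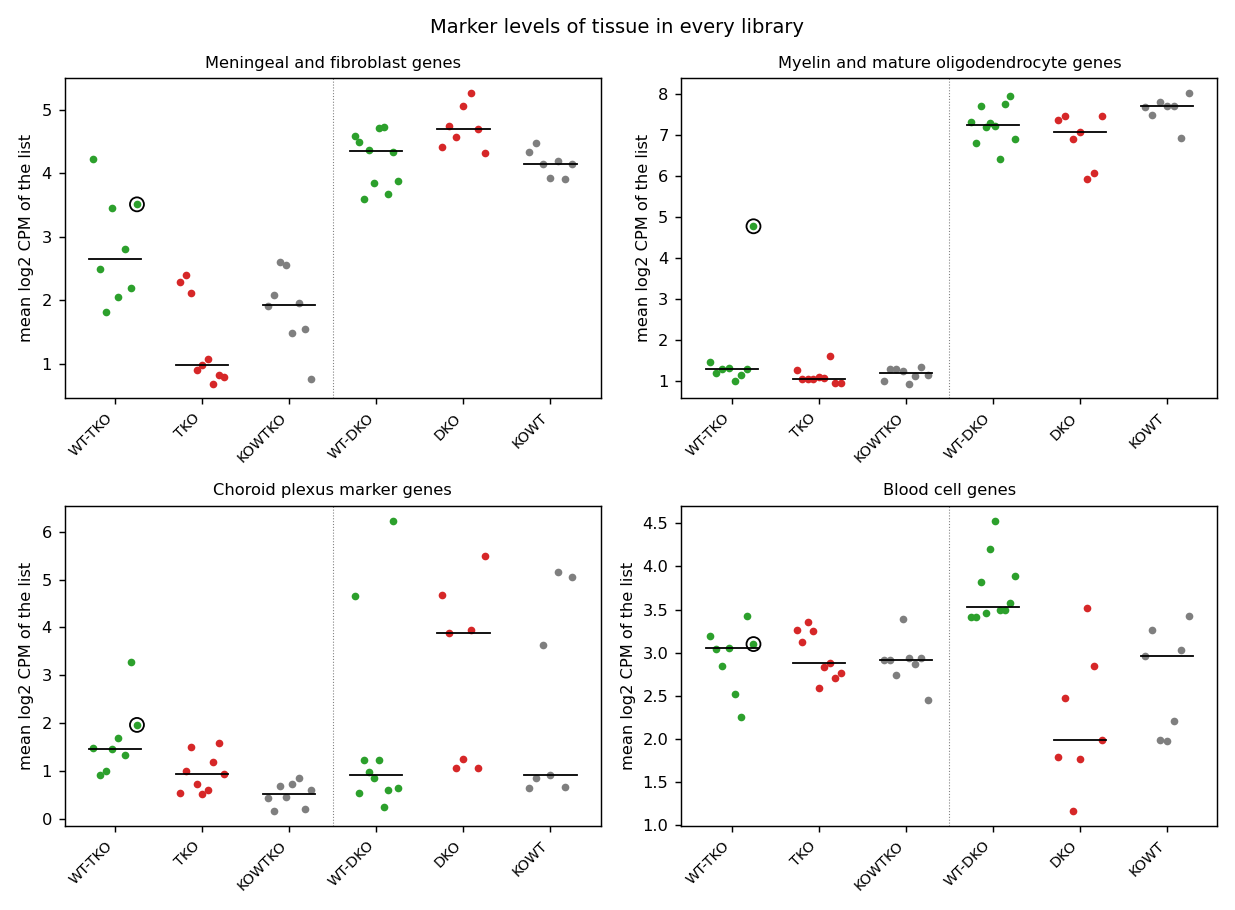
Mean log2 CPM of 4 marker lists in every library (points) with group medians (lines), coloured as in the plot of single genes, with WT-TKO replicate 8 ringed. The meningeal list lies lower in TKO (0.69 to 2.40) than in WT-TKO (1.82 to 4.22), and WT-TKO replicate 8 stands at 4.77 on the myelin list, above the rest of its group.

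**Figure D4:**
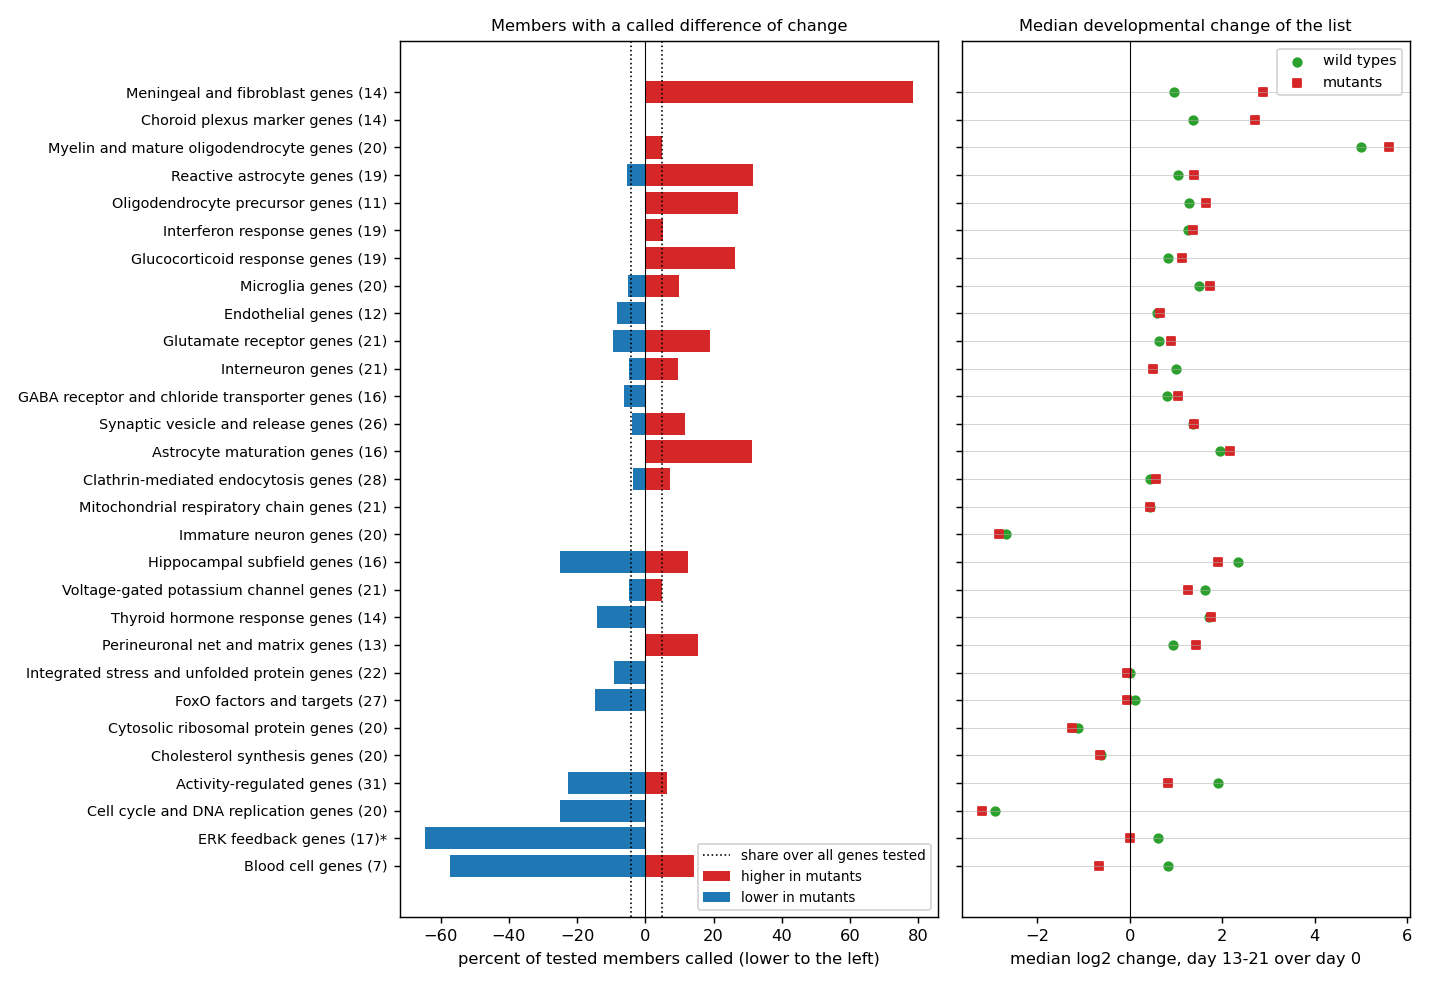
Left, the percent of tested members of each list called higher (red, right) or lower (blue, left) in the mutants, with the shares over all genes (4.98% and 4.2%) dotted; the number tested is in brackets and the asterisk marks the list drawn up after the values were seen. Right, the median log2 change of each list in wild types and mutants. The activity-regulated list shows 1.90 and 0.82, while the median of its members' differences is −0.31.

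Myelin genes were called higher in 1 of 20 members and lower in 0, or lower in 1 without WT-TKO replicate 8. Cldn11, a tight junction protein of myelin and meninges, had a difference of 3.13 ± 0.86 (adjusted p = 0.0205), with medians of 1.35 CPM in WT-TKO, 0.516 in TKO, 306 in WT-DKO and 311 in DKO. WT-TKO replicate 8 stood at 32.9 CPM, against 0.496 to 6.55 CPM in the other WT-TKO libraries, and without it the difference of Cldn11 was 1.87 ± 0.60 (adjusted p = 0.0438). Of 11 oligodendrocyte precursor genes 3 were higher and 0 lower. Of 20 microglia genes 2 were higher and 1 lower, with 1 to 4 higher leaving out single libraries, the 4 without DKO replicate 4, WT-TKO replicate 2 or WT-TKO replicate 7. Lists of basic functions held 0 calls by edgeR: of 21 mitochondrial respiratory chain genes 0 had an unadjusted p under 0.05, with 0 called by DESeq2 and 0 by limma-voom, and of 20 cytosolic ribosomal protein genes the numbers were 4, 1 and 0, with 3 called lower without WT-TKO replicate 7 and 2 without WT-TKO replicate 8.

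The littermates gave the same question other controls, in a fit of all 6 groups with 16805 genes. The comparison shares the mutants with the one above and, unlike it, sets them against animals from the mutant lines that are themselves low in Sh3gl2. The mutant change differed from the littermate change in 1496 genes (8.9%). The change of the littermates differed from that of the wild types, libraries that also enter the comparison above, in 1915 genes (11.4%). These 2 differences add up to the one described so far, so for each gene they show on which side of the littermates it lay.

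For some genes nearly the whole difference lay between mutants and littermates. For Nr4a1 it was −1.30 against littermates (adjusted p = 0.000306) and 0.22 between littermates and wild types (adjusted p = 0.562). For Fbxo32 the values were −0.71 (adjusted p = 0.00351) and −0.06, for Calb2 0.80 (adjusted p = 0.000114) and −0.13, for Grik1 0.62 (adjusted p = 0.003) and 0.08, and for Ypel1 0.54 (adjusted p = 0.00119) and 0.08. Over the activity-regulated list, 13 of 31 were lower and 0 higher against littermates, on a background of 4.78% and 4.12%, and 4 were higher and 0 lower between littermates and wild types, on a background of 5.88% and 5.52%. Arc, not called against wild types, was lower against littermates by its value of −1.62 (adjusted p = 0.0155).

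For other genes it lay between the control lines. Ada had −0.13 against littermates (adjusted p = 0.731) and 1.73 between littermates and wild types (adjusted p = 3.65e-08). Plin4 had −0.34 and 3.39 (adjusted p = 0.000147), Gja1 −0.02 and 0.76 (adjusted p = 0.00742), Grm3 −0.10 and −0.65 (adjusted p = 0.000702) and Prkcb −0.13 and −0.46 (adjusted p = 0.000656). The glucocorticoid list had 11 of 19 called higher between littermates and wild types and 2 called lower against littermates. Of the 20 cell cycle and DNA replication genes, 6 were called lower between littermates and wild types and 1 against littermates. The list medians were −0.45 and −0.04, and 0 members were higher in either comparison. Of the 16 astrocyte maturation genes, 4 were called higher and 0 lower between littermates and wild types. Against littermates 0 of these 16 were higher and 1 was lower.

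Cybrd1 was called on both sides, at 1.12 (adjusted p = 9.51e-05) and 0.85 (adjusted p = 0.00168). Gfap had 0.93 against littermates (adjusted p = 0.0004) and 0.42 between the control groups (adjusted p = 0.081), and Etv5 −0.51 (adjusted p = 0.00548) and −0.27 (adjusted p = 0.113). Ada, Plin4, Gja1, Grm3, Prkcb and Ccnd1 were thus called against wild types and not against littermates, and the difference between the control groups was itself called for each of them (for Ccnd1 −0.79, adjusted p = 0.000716).

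**Figure D5:**
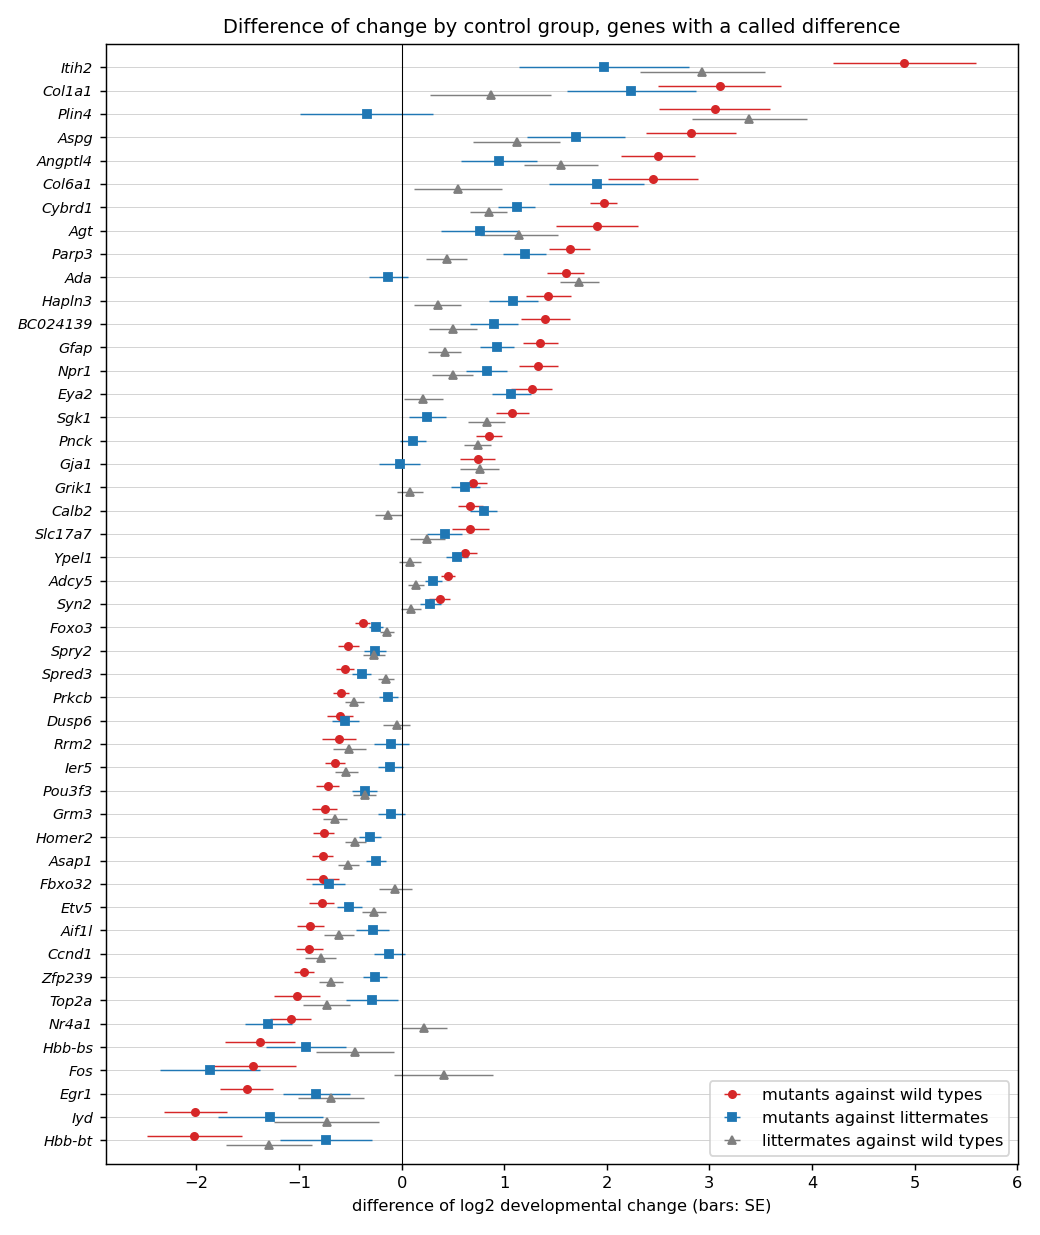
The difference of log2 developmental change with its SE for each named gene with a called difference except Sh3gl3, and for Etv5, Spry2 and Dusp6, as mutants against wild types (red circles), mutants against littermates (blue squares) and littermates against wild types (grey triangles). Nr4a1 lies at −1.30 against littermates and 0.22 between control groups, and Ada at −0.13 and 1.73.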

How the data were processed

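Hippocampal polyadenylated RNA of 49 samples was sequenced from TruSeq libraries that do not mark strand, extracted with 1 of 2 column kits that the labels do not tie to samples. The submitters' processing notes name CASAVA 1.8.2, STAR 2.3.0e, DESeq2 without a version, and build mm10; counter and annotation were not stated. The authors deposited raw counts, whole numbers of reads for each of 38355 Ensembl genes; 5 further lines that name no gene were left out of all totals. Of the reads counted, 9.69% to 16.5% per library of the 4 groups had no gene and 1.59% to 1.88% were ambiguous. The authors' 4 tables of comparisons were not used here. Names and positions came from GENCODE M21 (GRCm38, which mm10 denotes) for 36602 genes. Within each group, all library pairs differed by more than sampling noise.

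Tests used edgeR 4.0.16 under R 4.3.3 (filterByExpr, TMM, robust quasi-likelihood fit of group means), with Benjamini-Hochberg adjustment over all genes tested and calls at an adjusted p under 0.05. The difference is an interaction contrast over 34 libraries; the littermate contrasts used all 49. CPM are scaled by TMM, values in brackets after a range are medians, and errors are SEs of log2 values. Replicate numbers did not pair samples. Named genes were the 3 targeted genes; the 3 protein-coding genes with the smallest p in each of 8 classes (mean log2 CPM of at least 1); the 2 called members with the smallest p of each list with at least 4 called; and Grin2a, Grin2b, Slc12a2, Slc12a5, Dcx, Arc, Fos, Bdnf, Fbxo32 and Foxo3. Etv5, Spry4, Homer1, Grm2, Tdo2, Emp1 and Cldn11, and the ERK feedback list, were chosen after their values were seen. The members and all 28 other lists were chosen with earlier results of these data known. Alternatives were RLE size factors, DESeq2 1.42.0, limma-voom (limma 3.58.1), no filter, a replicate block, a myelin covariate, and leaving out libraries; covariates for meningeal and choroid plexus genes and sex were added after the data were seen. The procedure was tested on simulated counts.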

Additional observations from a re-analysis of the deposited data

Results flagged for a closer look

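In 216 combinations of the 54 named genes, called or not, and the 4 groups, 22 had a library whose gap to the nearest other was large for the group's range; chance gives about 1 in 20. WT-TKO replicate 8 was such a library for Agt (18.1 CPM), Arc (10.5 CPM), Egr1 (52.4 CPM), Fbxo32 (11.8 CPM), Slc17a7 (303 CPM) and Zfp239 (23.5 CPM). In each it was the highest of its group, on the side of the older wild types. The others were Agt in TKO replicate 1 (8.99 CPM), Aif1l in WT-TKO replicate 7 (48.5 CPM), Calb2 in WT-DKO replicate 7 (92.5 CPM), Col1a1 in WT-TKO replicate 1 (52.9 CPM), Foxo3 in WT-TKO replicate 2 (65.1 CPM), Gja1 in WT-TKO replicate 7 (40 CPM), Grik1 in WT-DKO replicate 7 (30.2 CPM), Hapln3 in DKO replicate 3 (3.39 CPM), Hbb-bs in WT-DKO replicate 6 (117 CPM), Hbb-bt in DKO replicate 5 (9.22 CPM), Iyd in DKO replicate 6 (3.56 CPM), Nr4a1 in WT-DKO replicate 6 (85.6 CPM), Pou3f3 in TKO replicate 4 (225 CPM), Sgk1 in WT-DKO replicate 9 (89.5 CPM), Syn2 in WT-DKO replicate 9 (838 CPM) and Zfp239 in DKO replicate 4 (61.2 CPM).

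The mutant effect differed between the ages, by the test of the difference itself, for 45 named genes. On the log2 scale it was higher at day 13 to 21 for Sh3gl3 (7.72), Itih2 (4.90), Col1a1 (3.10), Plin4 (3.05), Aspg (2.82), Angptl4 (2.5), Col6a1 (2.45), Cybrd1 (1.97), Agt (1.90), Parp3 (1.64), Ada (1.60), Hapln3 (1.43), BC024139 (1.40), Gfap (1.35), Npr1 (1.33), Eya2 (1.27), Sgk1 (1.08), Pnck (0.85), Gja1 (0.74), Grik1 (0.70), Calb2 (0.67), Slc17a7 (0.67), Ypel1 (0.62), Adcy5 (0.45) and Syn2 (0.37). It was lower for Hbb-bt (−2.02), Iyd (−2.01), Egr1 (−1.51), Fos (−1.45), Hbb-bs (−1.38), Nr4a1 (−1.08), Top2a (−1.02), Zfp239 (−0.95), Ccnd1 (−0.90), Aif1l (−0.89), Fbxo32 (−0.77), Asap1 (−0.77), Homer2 (−0.76), Grm3 (−0.75), Pou3f3 (−0.72), Ier5 (−0.65), Rrm2 (−0.61), Prkcb (−0.59), Spred3 (−0.55) and Foxo3 (−0.38). Sh3gl3 stands here by design of the genotypes.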

How the results depend on the processing

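Of 2484 values of named genes under the alternatives, 2454 kept their direction and side of the threshold, 14 lost a call, 4 gained one and 12 changed sign. The sign changes were all of uncalled genes near 0: Sh3gl2 (0.01 with limma-voom, 0.029 with the replicate block, 0.078 with the meningeal covariate, and −0.141 to 0.018 leaving out single libraries), Slc12a2 (−0.207 with the choroid plexus covariate, and −0.103 to 0.167) and Dcx (−0.142 without DKO replicates 5 and 6, −0.005 with the replicate block, −0.055 with the myelin covariate, −0.098 without 3 libraries, the same pair and WT-TKO replicate 8, and −0.043 to 0.141). The single libraries were TKO replicate 4 (0.006) or 6 for Sh3gl2, DKO replicate 7 for Slc12a2 and DKO replicate 6 for Dcx.

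The difference numbered 1522 genes with RLE size factors, 1959 with DESeq2, 1306 with limma-voom, 1109 with no filter, 1444 with sex as a term and 1293 without DKO replicates 5 and 6. With the meningeal covariate it was 451 (252 higher, 199 lower, 149 by at least 2-fold; 182 exaggerated, 46 stunted, 4 reversed, 109 in wild types only, 95 in mutants only), 1345 genes differed at birth and 877 against littermates. Genes called against littermates were 883 with no filter, 560 with the myelin covariate, 645 without DKO replicates 5 and 6 and 771 without 3 libraries, and exaggerated genes 440 with no filter. The cause was not tested.

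The replicate numbers did not pair samples (6 of 46 same-number pairs with a correlation over 0.1); with a replicate block the difference was 1017 (456 lower), with 176 stunted, 141 in wild types only and 167 in mutants only.

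Leaving out 1 library at a time gave 1222 to 1767 genes for the difference, 681 to 952 higher, 540 to 816 lower and 301 to 385 by at least 2-fold; 536 to 854 exaggerated, 224 to 403 stunted, 63 to 81 reversed, 182 to 266 in wild types only and 214 to 308 in mutants only. The mutant effect ranged from 2796 to 4007 at the older age and 3145 to 4476 at birth, the change in wild types from 13245 to 13561 and in mutants from 13121 to 13338, the count against littermates from 985 (without DKO replicate 6) to 1859, and that between control groups from 1552 to 2512. None of the 45 named calls was lost in any of these 34 fits.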
